A study of Mus musculus with 227 samples.

Results

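Single cells labelled CSP were compared with single cells labelled mSSC from the same index plate. Both came from long bones, taken with bone marrow, of BL6 mice at postnatal day 3, and no age, strain or treatment differed between the labels. The CSP gate was CD45-, Ter-119-, Tie2-, AlphaV+, Thy-, 6C3- and CD105+. The mSSC gate shared every antigen but CD105, for which it was negative, and it added CD200+. Cells were sorted with a repeat sort, captured on the Fluidigm C1 chip, imaged so that single live cells were taken, and made into libraries by the SMARTer and Nextera XT chemistries, with ERCC spike-ins added. The series holds 26 cells labelled CSP and 37 labelled mSSC. The comparison keeps those in which at least 1000 genes reached 1 FPKM, a unit of fragments that map to a transcript per kilobase of its length, scaled to the mapped total. That left 48 of these 63 cells, 11 of 26 CSP and 37 of 37 mSSC, or 21.1% of all cells of the series.

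In the growth plate, cartilage cells pass from a resting zone through columns of dividing cells to prehypertrophic and hypertrophic cells, which calcify their matrix. Prehypertrophic cells secrete Indian hedgehog and carry the receptor for parathyroid hormone and its related peptide, and that peptide, made nearer the bone end, holds back hypertrophy. Resting and articular-side cartilage makes another set of secreted proteins, among them the Gla-rich matrix protein encoded by Ucma.

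The labels name no animal and no culture. Each label was therefore 1 sample, no p-value could be given, and SDs and exact Clopper-Pearson 95% intervals (in parentheses after shares) cover the spread and the counting error over cells only. Detection in a cell means an FPKM of at least 1. The level of a gene is its mean log2(FPKM + 1) over cells, a scale that understates differences of low genes, and a difference is the CSP mean minus the mSSC mean. A gene was called higher or lower by a rule of size, a difference of at least 2 in level; counts of called list members below are by this rule. A second rule, a difference of at least 40 percentage points in the share of cells, is named where it is used.

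The labels were interleaved on the plate, with kept CSP cells in 6 of its 8 index rows and mSSC cells in all 8. Kept CSP cells had 1785 to 4604 detected genes (median 3033) and mSSC cells 1164 to 4390 (median 2534). Just outside the threshold, the best of the 15 CSP cells left out had 670 genes, against 1785 in the lowest CSP cell kept. Ribosomal protein genes took a median of 11.5% of FPKM in CSP and 11.8% in mSSC cells, and the 50 highest genes 33.4% and 34.4%. Both labels were cartilage-rich. Col2a1, the main collagen of cartilage, was detected in 10 of 11 CSP cells and 35 of 37 mSSC cells, and its level differed by 0.17. Of the lists of 9 endothelial, 9 myeloid, 7 pre-B and 7 measured erythroid genes, none was detected in a kept CSP cell, and in mSSC cells their summed FPKM reached at most 139.2, 85.1, 1.50 and 3.99 in any cell. Other lists were not empty. Of 11 pericyte and smooth muscle genes an mSSC cell held up to 10 and a CSP cell up to 2, with highest sums of 22788 and 314.8 FPKM. Highest sums in CSP and mSSC cells were 449.0 and 2637 for adipocyte, 2064 and 2288 for osteoclast, and 4737 and 5225 for tendon genes. They were 714.2 and 2841 for Schwann and 480.3 and 356.8 for skeletal muscle genes. Transcripts of 2 sort antigens did not follow the gates: Cd200 was detected in 9 CSP and 8 mSSC cells and Eng, which encodes CD105, in 0 CSP and 8 mSSC cells. Itgav, the AlphaV integrin gene, was detected in 7 CSP and 24 mSSC cells, and Thy1, Enpep, Tek and Ptprc in none. Directions below therefore rest on the labels. Whether the labels were exchanged, which would turn every direction, cannot be told from these values.

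Transcripts of the sex chromosomes also went with the label. A Y-linked transcript (Ddx3y, Eif2s3y, Kdm5d or Uty) was detected in 8 of 11 CSP cells (72.7%, 39.03 to 93.98) and in 5 of 37 mSSC cells (13.5%, 4.54 to 28.8). Xist, the RNA of the inactive X chromosome, was detected in 1 of 11 CSP cells and in 21 of 37 mSSC cells (56.8%, 39.5 to 72.9). No cell held both, and 2 CSP and 11 mSSC cells held neither. Most CSP cells and most mSSC cells thus carried different sex-linked transcripts, so the source animals and the label cannot be told apart over all cells. The main differences are therefore also given over the 8 CSP and 5 mSSC cells with a Y-linked transcript, an alternative chosen after seeing the data.

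In all, 7485 genes were found in 5 or more of the 48 cells, and their median difference was 0.02. By level 3.79% of them were higher and 1.98% lower in CSP cells, and by share of cells 2.63% were higher and 0.307% lower. These shares belong beside each count of called list members below. Only list members found in 5 or more cells could be called. Of the calls by level 65.7% were on the higher side. That split depends on scaling: with FPKM rescaled to 1000000 per cell, which moved the median of all genes to 0.16, calls came to 6.35% of that number higher and 1.55% lower, so 80.4% of calls were higher. In the range of gene number that both labels share, 1785 to 4390, they came to 2.71% and 2.74%, so 49.8% were higher. That range kept 10 CSP and 35 mSSC cells. Leaving out only the CSP cell with 4604 genes, which lies outside it, already gave 55.3% higher. What follows concerns named genes. The plot of level against share shows that the highest genes differed in both measures, and that among the lowest genes Cytl1, Fcgrt and Nfib differed most in share while Fstl1 and Islr, found in most cells of both labels, differed in level.

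**Figure D1:**
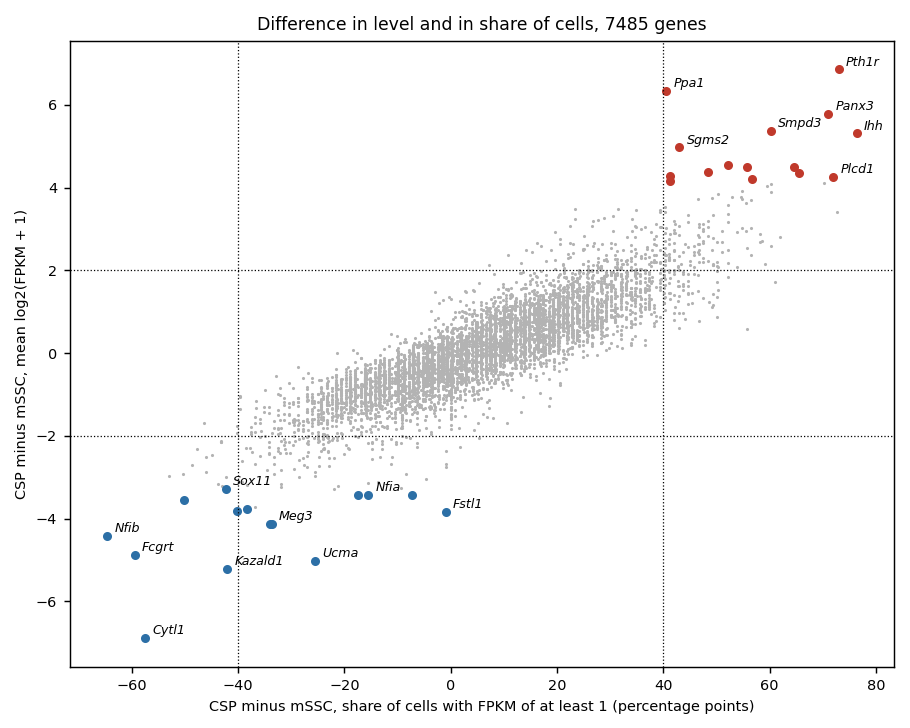
Each of 7485 genes by its CSP minus mSSC difference in the share of cells with FPKM of at least 1 (x axis, percentage points) and in mean log2(FPKM + 1) (y axis), with dotted lines at the size rules of 40 points and 2; red and blue points are the 15 highest and 15 lowest named genes. Pth1r stands highest at 6.87 and Cytl1 lowest at -6.89.

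The promoters of Ihh, Ucma and Meg3 are shown because these genes stand for the 3 groups described first: the prehypertrophic signal, the matrix genes of uncalcified cartilage, and an imprinted RNA. Each run is the RefSeq window in build GRCm38.p6, from 250 bases before to 50 after a gene start, 5′ to 3′ on the gene's strand. Capitals mark matches, on either strand, to TGTGGT (the core bound by RUNX factors, ACCACA on the other strand) or to TGACGTCA (the cAMP response element). The Ihh window is chr1:74951623-74951922, minus strand, and holds no match; the Ucma window is chr2:4975872-4976171, plus strand; the Meg3 window, the first of 2, is chr12:109540746-109541045, plus strand.
Ihh: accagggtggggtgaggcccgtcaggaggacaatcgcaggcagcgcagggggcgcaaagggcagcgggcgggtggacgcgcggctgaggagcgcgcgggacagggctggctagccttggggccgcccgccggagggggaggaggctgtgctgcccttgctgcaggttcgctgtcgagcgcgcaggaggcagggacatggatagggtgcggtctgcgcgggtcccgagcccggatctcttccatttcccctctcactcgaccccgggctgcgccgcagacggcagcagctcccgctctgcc
Ucma: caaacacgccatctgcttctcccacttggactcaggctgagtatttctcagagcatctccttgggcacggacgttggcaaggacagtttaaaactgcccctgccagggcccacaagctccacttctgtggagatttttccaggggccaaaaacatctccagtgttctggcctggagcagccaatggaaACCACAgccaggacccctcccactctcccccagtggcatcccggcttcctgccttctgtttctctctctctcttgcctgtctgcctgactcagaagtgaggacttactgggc
Meg3: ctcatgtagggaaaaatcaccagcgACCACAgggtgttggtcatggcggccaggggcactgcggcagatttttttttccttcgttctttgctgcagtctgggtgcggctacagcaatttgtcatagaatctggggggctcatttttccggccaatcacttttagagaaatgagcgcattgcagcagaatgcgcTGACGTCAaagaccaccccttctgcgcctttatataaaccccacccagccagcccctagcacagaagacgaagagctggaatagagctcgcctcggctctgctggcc

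Across all 32851 promoter windows 16.8% held TGTGGT, 1.79% held TGACGTCA and 0.253% held GACCACCCA, a site bound by GLI factors, on either strand. Of the 15 highest named genes 9 had a window, 17 windows in all, and TGTGGT was in 1 of these genes, Sgms2. Of the 15 lowest 14 had a window, 16 in all, with TGTGGT in Meg3 and Ucma and TGACGTCA in Meg3. GACCACCCA was in none of these windows. A match is a string of letters in a window, not a binding site.

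The clearest pattern on the higher side was a prehypertrophic set: a hormone receptor, a hedgehog ligand, a channel and a collagen. Pth1r (chr9:110722085-110747145), the receptor for parathyroid hormone and its related peptide, had a lowest, median and highest FPKM of 18.2, 376 and 2002 in CSP cells, against 0, 0 and 1046 in mSSC cells. It was detected in every CSP cell and in 10 of 37 mSSC cells (27.03%, 13.8 to 44.1), so the groups overlapped only through those mSSC cells. Its level was 8.28 ± 2.03 in CSP and 1.41 ± 2.84 in mSSC cells (SD, n = 11 and 37 cells), a difference of 6.87. Over the cells with a Y-linked transcript it was found in 8 of 8 CSP cells and in 3 of 5 mSSC cells, with a difference of 6.08.

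Ihh (chr1:74945315-74951672, GENCODE), the ligand whose promoter is shown above, had a lowest, median and highest FPKM of 0, 92.2 and 1029 in CSP cells, against 0, 0 and 11.1 in mSSC cells. It was detected in 9 of 11 CSP cells (81.8%, 48.2 to 97.7) and 2 of 37 mSSC cells (5.41%, 0.661 to 18.2), and the intervals did not overlap. The level was 5.49 ± 3.61 in CSP and 0.17 ± 0.74 in mSSC cells. The difference was 5.32, and 4.71 over the Y-linked cells. Panx3, a pannexin channel of prehypertrophic cartilage and osteoblasts, had 0, 506.4 and 6266 FPKM in CSP cells, against 0, 0 and 1919 in mSSC cells. It was detected in 9 CSP and 4 mSSC cells, with a difference of 5.79. Col10a1, which encodes the collagen that defines hypertrophic cells, had 0, 2.00 and 9320 FPKM in CSP cells, against 0, 0 and 14.9 in mSSC cells. Only part of the CSP cells held it (6 of 11), and 1 of them far outran the rest.

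Those 4 were the called members of the 12 prehypertrophic and hypertrophic genes, with 4 higher, 0 lower and a median difference of 1.21. Fgfr3, a receptor that restrains chondrocyte growth, and Cdkn1c, a cell cycle inhibitor, differed by 1.86 and 1.50, short of the rule, and Cdkn1c by -4.11 with all 26 CSP cells. Late hypertrophic transcripts were scarce: Mmp13, the collagenase of the terminal zone, was detected in no cell, Ibsp, a bone matrix sialoprotein, in 1 CSP and 0 mSSC cells, and Spp1, which encodes osteopontin, in 2 CSP and 5 mSSC cells. Vegfa, the angiogenic factor of hypertrophic cartilage, was in 4 CSP and 10 mSSC cells and differed by 0.26.

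**Figure D2:**
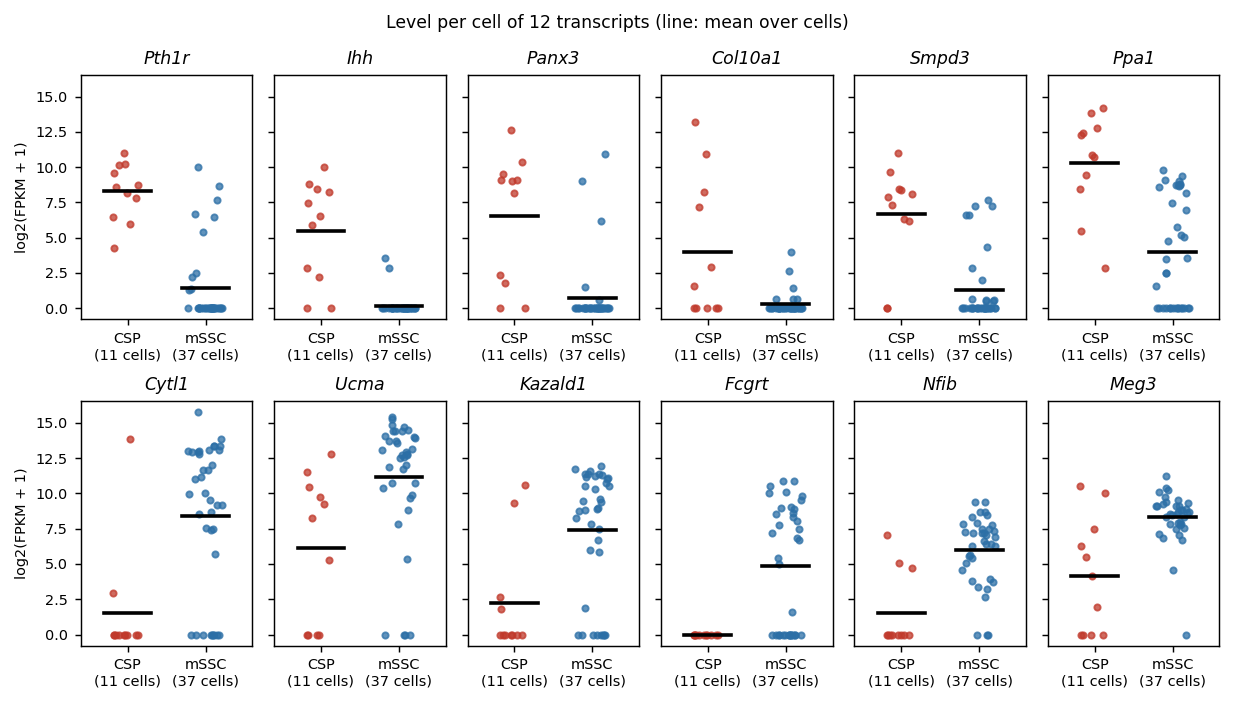
Level per cell, log2(FPKM + 1) on the y axis, of 12 transcripts in CSP (red, 11 cells, left) and mSSC (blue, 37 cells, right), with the mean over cells as a line. Pth1r was above 0 in all CSP cells, Ihh reached at most 11.1 FPKM in mSSC cells, and Fcgrt was at 0 in all CSP cells.

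Single genes of mineral and phosphate chemistry were also higher, while the median over that list of 13 was 0.10. Smpd3, a neutral sphingomyelinase needed for normal skeletal mineralisation, had a lowest, median and highest FPKM of 0, 233 and 2087 in CSP cells, against 0, 0 and 206 in mSSC cells. It was detected in 9 CSP and 8 mSSC cells, and the difference was 5.38. Sgms2, which makes sphingomyelin and is not on that list, differed by 4.97, with detection in 8 CSP and 11 mSSC cells. Both an enzyme that makes this lipid and one that cleaves it were thus higher. Ppa1, the cytosolic pyrophosphatase, had 6.11, 1882 and 18732 FPKM in CSP cells, against 0, 10.3 and 896 in mSSC cells. It was found in all 11 CSP and in 22 mSSC cells, a difference of 6.34, and 4.47 over the Y-linked cells.

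Alpl, the tissue-nonspecific alkaline phosphatase, was detected in 4 of 11 CSP cells (36.4%, 10.9 to 69.2), with a highest FPKM of 1524, and in 0 of 37 mSSC cells, a count that allows a share of up to 9.49%. The intervals did not overlap. Phospho1, the phosphatase of matrix vesicles, was in 5 CSP and 0 mSSC cells, at 28.04 FPKM or less. Alpl and Phospho1 were chosen for detail after their values were seen, and Alpl, found in 4 cells, did not pass the filter on detected cells. Mgp, whose matrix Gla protein inhibits calcification, went the other way: its lowest, median and highest FPKM were 0, 1226 and 10115 in CSP cells, against 0, 5896 and 43351 in mSSC cells. The difference was -3.15, in level rather than in cells (9 of 11 and 36 of 37). Of the 13 genes of the list 9 were found in 5 or more cells. By level 2 were called higher and 1 lower, beside 3.79% and 1.98% of all tested genes, and the list's median difference was 0.10. Phospho1 was also higher by share of cells. It passed the filter through its 5 CSP cells alone, which fixed that call in advance.

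Counted per cell, 6 genes chosen because they were higher in CSP cells (Pth1r, Ihh, Panx3, Col10a1, Alpl and Smpd3) describe that choice and do not add to it. At least 4 of them were detected in 9 of 11 CSP cells and in 1 of 37 mSSC cells, and the median number per cell was 5 in CSP and 0 in mSSC cells. All 6 were present in 2 CSP cells. None of the 6 was present in 0 CSP and 19 mSSC cells. The 9 CSP cells with Ihh were the 9 with Panx3. All 6 CSP cells with Col10a1 held Ihh and Panx3 as well, whereas the 3 mSSC cells with Col10a1 held no Pth1r, Ihh or Panx3. Cells with more detected genes have more chances to hold any set; the median gene number was 3033 in CSP and 2534 in mSSC cells, and its part was not tested.

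The other 2 CSP cells stood apart. One had 432 FPKM of Pth1r, no Ihh or Panx3, and 6935 FPKM of Ucma, and the other, which lacked Col2a1, is described further on. Among mSSC cells, 1 held 4 of the 6 genes: Pth1r at 101.8, Ihh at 6.17, Panx3 at 506.3 and Smpd3 at 94.96 FPKM, together with 3666 FPKM of Ucma and 2070 of Cytl1. It had neither Xist nor a Y-linked transcript, and 2692 genes. A mirror case was 1 CSP cell with the highest Ihh, 1029 FPKM, and 14774 FPKM of Cytl1, a transcript detected in only 1 other CSP cell. Those cells held both sets at once.

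**Figure D3:**
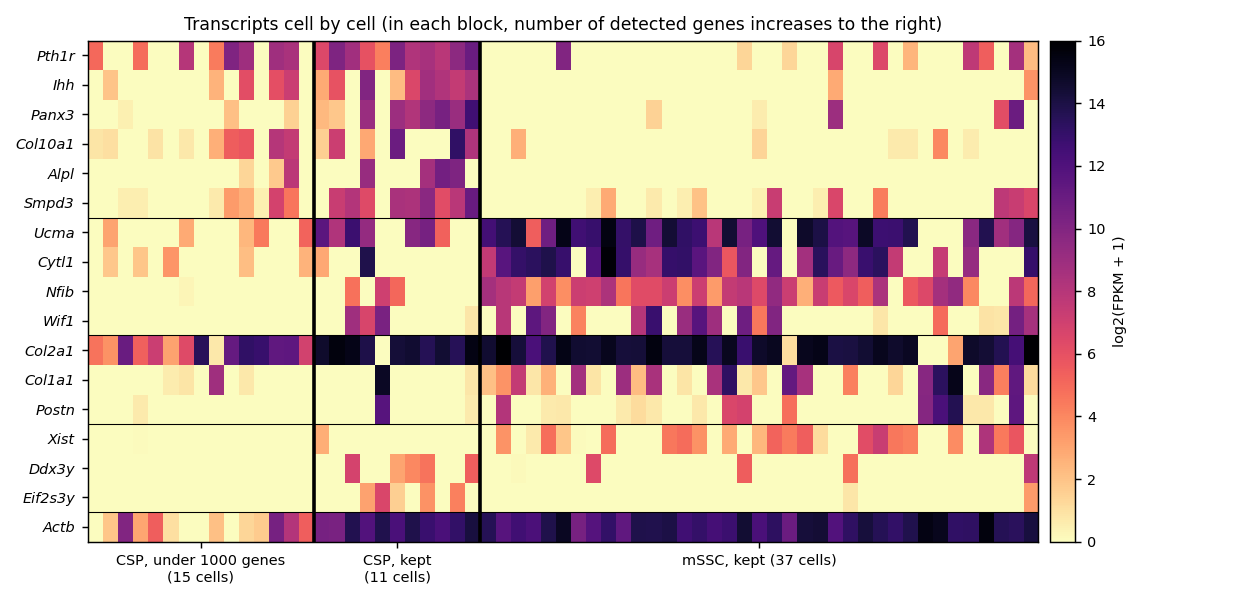
Level of 17 transcripts (rows, log2(FPKM + 1) as colour) in each cell (columns): 15 CSP cells with under 1000 genes, 11 kept CSP cells and 37 mSSC cells, ordered within each block by number of detected genes. In 9 of 11 kept CSP cells at least 4 of the top 6 transcripts were present, against 1 of 37 mSSC cells.

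Single transcription factors known from prehypertrophic cartilage were higher in CSP cells, while the median over 24 chondrocyte factors was 0.00. Runx3 had a lowest, median and highest FPKM of 0, 9.44 and 134.6 in CSP cells, against 0, 0 and 87.7 in mSSC cells, and was detected in 8 CSP and 4 mSSC cells, a difference of 2.81. Runx2, which with Runx3 drives chondrocyte maturation, was in 7 CSP and 5 mSSC cells, a difference of 2.19. Every one of the 7 CSP cells with Runx2 also held Runx3 and Panx3. Dlx5, a homeobox factor of maturing cartilage and bone, had 0, 30.1 and 254.8 FPKM in CSP cells, against 0, 0 and 648 in mSSC cells, with a difference of 3.03. Zbtb20, a zinc finger factor needed for terminal cartilage differentiation in mice, and Mef2c, a factor of hypertrophy, differed by 2.84 and 2.07. These 5 were the called members of the 24, with 0 lower, beside 3.79% of all genes called higher and 1.98% lower. Sp7, the osterix gene, differed by 1.82 (4 CSP and 2 mSSC cells), Sox9, the master factor of cartilage, by -1.06, and Sox5 and Sox6, its partners, by -0.59 and -0.63.

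Other genes among the highest were of mixed kind. Prkg2, a cyclic GMP-dependent kinase needed for growth plate maturation, had a lowest, median and highest FPKM of 0, 173.6 and 914.6 in CSP cells, against 0, 0 and 296 in mSSC cells, a difference of 4.39. Plcd1, a phospholipase C, was detected in 10 CSP and 7 mSSC cells, a difference of 4.26, and S100a1, a calcium sensor, in 10 and 13, a difference of 4.50. Smim5, a small membrane protein gene, was in 8 CSP and 3 mSSC cells (4.50), and Golga7, a partner of palmitoyltransferases, in 9 and 6 (4.35). Of housekeeping kind were Mrps18c, of the mitochondrial ribosome, at 4.56 and Psmb3, a proteasome subunit found in all 11 CSP and 16 mSSC cells, at 4.21. Nupr1, a stress-induced nuclear protein, and Cd24a, a surface glycoprotein, differed by 4.28 and 4.15. All 15 of these highest genes were at least 2 higher over the Y-linked cells as well, S100a1 the least at 2.51.

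Lipid synthesis and collagen folding were the broader groups that lay on the higher side. Of 19 cholesterol and fatty acid genes 18 had a difference above 0 and 5 were called higher, none lower, with a median of 1.51 beside 0.02 over all tested genes. Hmgcs1, the first committed step towards mevalonate, had a lowest, median and highest FPKM of 0, 771 and 2679 in CSP cells, against 0, 33.8 and 3542 in mSSC cells, a difference of 3.27. Dhcr7, the last step to cholesterol, was detected in 7 CSP and 2 mSSC cells, a difference of 2.68. Scd2, a fatty acid desaturase, differed by 2.64, and Msmo1 and Idi1, of the sterol and isoprenoid branches, by 2.20 and 2.03. Lss, which closes the sterol rings, was higher by share of cells and not by level (1.64). Over the Y-linked cells the list's median was 0.52, with Dhcr7 at 3.18, Hmgcs1 at 1.62 and Scd2 at 0.47, and with all 26 CSP cells it was -0.63.

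Of 33 genes of collagen processing and secretion 4 were called higher and 0 lower, beside 3.79% and 1.98% of all tested genes. The list's median was 0.82, which was 0.14 over the Y-linked cells and -1.92 with all 26 CSP cells. Manf, an endoplasmic reticulum stress protein, had 2.52, 123.2 and 434.3 FPKM in CSP cells, against 0, 0 and 673 in mSSC cells, and was detected in all 11 CSP and 15 mSSC cells. Its difference was 4.04. P3h1 and Crtap, partners in the complex that hydroxylates proline in collagen, differed by 2.56 (1.20 over the Y-linked cells) and 2.16, and Sdf2l1, a chaperone cofactor, by 2.44. Among 82 nuclear genes of oxidative phosphorylation 11 were higher and 2 lower, led by Ndufa1 (3.48), Atp5k (3.25) and Ndufs5 (3.07). The list's median was 0.51, which was 0.13 in the shared range of gene number and -2.31 with all 26 CSP cells. Leaving out 1 CSP cell at a time gave medians of 0.15 to 0.79. Ribosomal protein genes leaned the other way, 70 of 81 below 0 and a median of -0.65 (-0.14 after rescaling), with none called. Of the 6 housekeeping genes 5 lay below 0 (median -0.70, and -0.44 after rescaling). Summed FPKM per cell had a median of 578425 in CSP and 906237 in mSSC cells. The part of this gap in the differences was not tested.

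**Figure D4:**
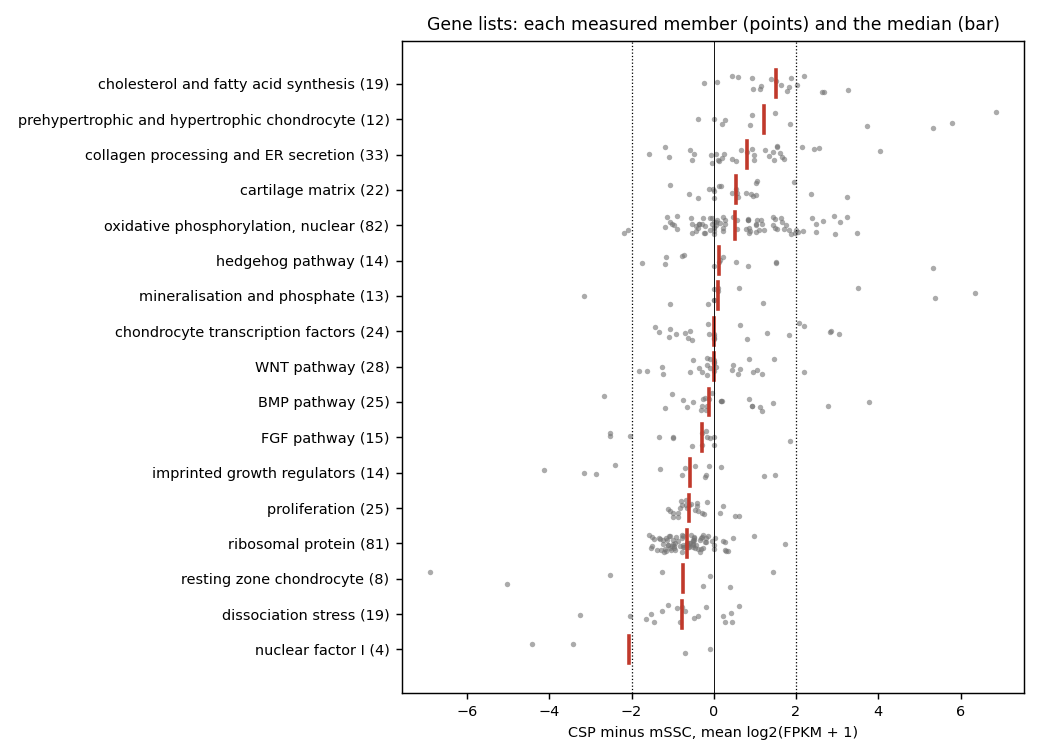
CSP minus mSSC difference in mean log2(FPKM + 1) (x axis) of each measured member of 17 gene lists (points, number of members in parentheses) and the list's median (red bar), with dotted lines at -2 and 2. Medians run from 1.51 for cholesterol and fatty acid synthesis to -2.05 for nuclear factor I.

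The cartilage matrix itself differed little, with 2 of 22 genes called higher and 0 lower, a median of 0.54, which was -0.01 over the Y-linked cells and -2.93 with all 26 CSP cells. Matn1, a matrilin of growth plate cartilage, had a lowest, median and highest FPKM of 0, 1923 and 4746 in CSP cells, against 0, 415 and 7016 in mSSC cells, a difference of 3.25. Comp, the oligomeric matrix protein, was in all 11 CSP and 33 mSSC cells and differed by 2.36, but by 0.86 over the Y-linked cells. Acan, the aggrecan gene, differed by 0.78 and Col9a1, a partner of collagen II, by -0.12. Small leucine-rich proteoglycans split: Omd (2.94) and Lum (2.22) were higher, and Prelp (-3.12) and Fmod (-2.37) lower. Among 27 glycosaminoglycan synthesis genes none was called by level, the nearest being B4galt7, an early step of chain assembly, just under the rule at 2.00 (-0.43 with all 26 CSP cells). Papss1, which makes the sulfate donor, was higher by share of cells.

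On the lower side, secreted products of uncalcified cartilage led. Cytl1, a cytokine-like protein of cartilage, had a lowest, median and highest FPKM of 0, 0 and 14774 in CSP cells, against 0, 996 and 55846 in mSSC cells. It was detected in 2 of 11 CSP cells (18.2%, 2.28 to 51.8) and 28 of 37 mSSC cells (75.7%, 58.8 to 88.2). The level was 1.52 ± 4.18 in CSP and 8.41 ± 5.29 in mSSC cells. The difference was -6.89, and -9.01 over the Y-linked cells. Ucma (chr2:4976122-4985748), whose promoter is shown above, had 0, 301 and 6935 FPKM in CSP cells, against 0, 6697 and 44464 in mSSC cells. It was in 7 CSP and 33 mSSC cells, a difference of -5.03, and the groups overlapped. Kazald1, a secreted Kazal-domain protein, was in 4 CSP and 29 mSSC cells and differed by -5.22.

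Of 8 resting zone genes 0 were called higher and 3 lower (median -0.76): Cytl1, Ucma and Clu, the clusterin gene, at -2.51. The defining signals of that zone gave no such reading. Pthlh, the related peptide itself, was detected in 1 CSP and 2 mSSC cells, Sfrp5, a WNT inhibitor, in 1 and 5, and Wif1, another, in 3 and 15, with differences of -0.26, -0.10 and -1.26. Of 4 transcripts (Ucma, Cytl1, Nfib and Wif1), at least 3 were present in 2 CSP and 30 mSSC cells, and the median was 1 in CSP and 3 in mSSC cells. Ucma, Cytl1 and Nfib were called lower in this same comparison, so these counts describe the choice of genes and do not add to it. Nfib is not on the resting zone list. Of the 8 genes that are, 6 lay below 0 and 2, Spon1 and Apoe, lay above 0.

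The nuclear factor I family was split between its members. Nfib had a lowest, median and highest FPKM of 0, 0 and 130 in CSP cells, against 0, 97.4 and 668 in mSSC cells. It was in 3 of 11 CSP cells (27.3%, 6.02 to 60.97) and 34 of 37 mSSC cells (91.9%, 78.1 to 98.3), with intervals that did not overlap, and differed by -4.42. Nfia was in most cells of both labels (9 and 36) but at a median of 10.5 FPKM in CSP and 126.5 in mSSC cells, a difference of -3.42. Nfix (-0.69) and Nfic (-0.09) were not called. Over the Y-linked cells Nfib differed by -4.01 and Nfia by -2.26. All 4 members encode related DNA-binding factors. Sox11, an early mesenchymal factor, was in 1 CSP and 19 mSSC cells (-3.28), and Cebpb, a factor of hypertrophy and inflammation, in 4 and 26 (-4.13). Tbx15, a limb factor, was in 0 and 18 (-2.70) and passed the filter through mSSC cells alone.

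Imprinted RNAs of 1 chromosome 12 cluster were lower together. Meg3 (chr12:109541001-109571726), a maternally expressed noncoding RNA, had a lowest, median and highest FPKM of 0, 16.4 and 1452 in CSP cells, against 0, 396 and 2384 in mSSC cells, and the ranges overlapped. It was in 7 CSP and 36 mSSC cells and differed by -4.13. Rian (chr12:109603940-109661716), the next noncoding RNA, was in 5 CSP and 33 mSSC cells (-3.16), and Dlk1 (chr12:109452823-109463336), the paternally expressed coding gene of the cluster, in 7 and 33 (-2.88). All 5 CSP cells with Rian held Meg3. Over the Y-linked cells the differences were -5.15, -2.79 and -3.68. Outside the cluster Mest was lower (-2.41), whereas Igf2 and H19, detected in every cell, differed by -0.78 and -0.45. Of the 14 imprinted genes, 13 found in 5 or more cells, 4 were lower and 0 higher, beside 1.98% and 3.79% of all tested genes. The list's median was -0.58, and -0.14 after rescaling.

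The remaining lowest genes were of connective tissue, secretion and stress kinds. Fcgrt, the neonatal Fc receptor, was at 0 in all 11 CSP cells, which allows a share of up to 28.5%. It passed the filter on detected cells through mSSC cells alone. It was detected in 22 of 37 mSSC cells (59.5%, 42.1 to 75.2), with a highest FPKM of 1915. Fstl1, a secreted follistatin-like protein, had a median FPKM of 132.3 in CSP and 1801 in mSSC cells and differed by -3.83. Islr, a leucine-rich repeat protein of mesenchyme, differed by -3.42, Igfbp7, an IGF-binding protein, by -3.55 and Col3a1, the collagen of loose connective tissue, by -3.77. Mt1, a metallothionein, and Eif4a2, a translation helicase, differed by -3.82 and -3.44. Over the Y-linked cells 13 of the 15 lowest genes were still at least 2 lower; the others, Fstl1 and Islr, differed by -1.93 and -1.28.

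**Figure D5:**
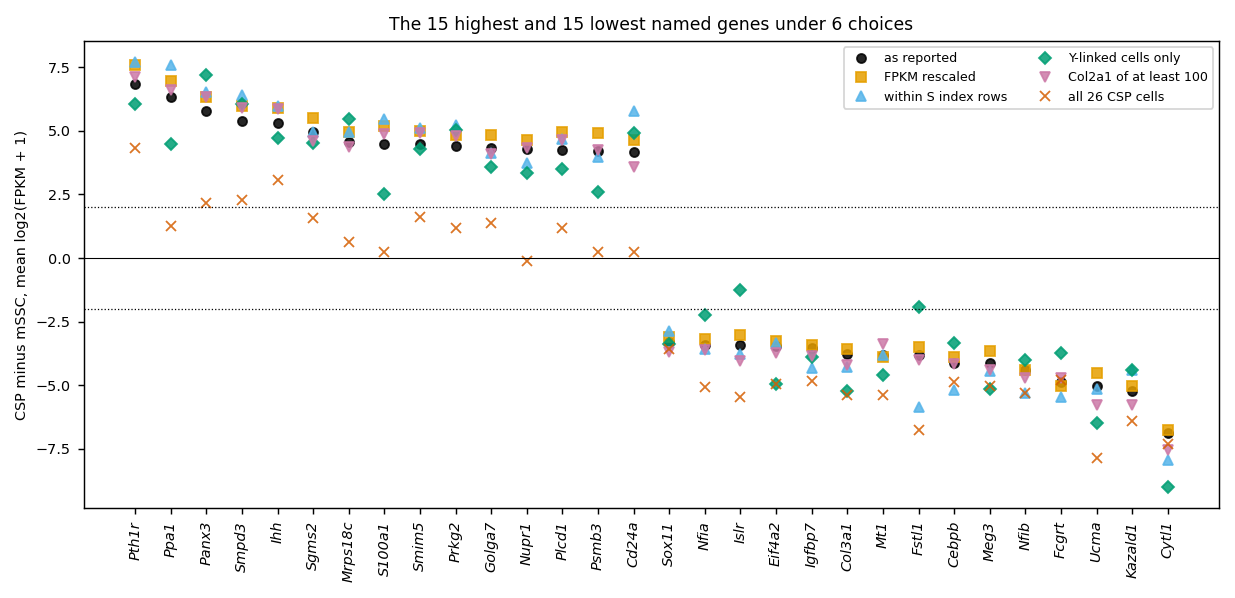
CSP minus mSSC difference in mean log2(FPKM + 1) (y axis) of the 15 highest and 15 lowest named genes (x axis) as reported and under 5 other choices of cells or scaling; dotted lines mark 2 and -2. With all 26 CSP cells Nupr1 stood below 0, at -0.12, and over Y-linked cells Islr stood at -1.28.

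Signalling pathways around the prehypertrophic set differed little as wholes, and single members stood out. In the hedgehog pathway Ihh was the 1 of 14 genes called by level, beside a median of 0.13. Disp1, which releases hedgehog from the cell, was higher by share of cells (6 CSP and 3 mSSC cells), and its level differed by 1.51 (by -0.85 over the Y-linked cells) and Smo, the signal transducer, by 1.51. The response side was mixed. Gli1, a target of the pathway, was in 1 of 11 CSP and 9 of 37 mSSC cells. Gli2 was in 0 and 8, and Hhip, an inhibitor and target, in 0 and 9. Ptch1, receptor and target, was in 3 and 6, a larger share of CSP than of mSSC cells. In that order the differences were -0.78, -1.17, -1.18 and 0.14, all short of the rule. Gas1, a co-receptor, differed by -1.75. Of 18 genes of parathyroid hormone and cyclic AMP signalling Pth1r was the 1 called higher and Pde4b, a phosphodiesterase, the 1 lower (-2.13). Pde4b differed by -1.55 over the Y-linked cells, by -1.27 within index rows and by -1.89 after rescaling, all short of the rule.

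Secreted antagonists were among the called BMP genes. Chrdl1, which binds BMPs, was detected in 6 of 11 CSP cells (54.5%, 23.4 to 83.3), up to 945 FPKM, and in 0 of 37 mSSC cells, which allows up to 9.49%, a difference of 3.78. It passed the filter on detected cells through CSP cells alone. Nog, the noggin gene, was in 6 CSP and 5 mSSC cells (2.77). Id2, a target of the pathway, was lower (-2.68), while Id1 (0.93) and Id3 (-1.18) were not called. Of 25 BMP genes 18 were found in 5 or more cells. By level 2 were higher and 1 lower, beside 3.79% and 1.98% of all tested genes, with a list median of -0.12. Smad7, an inhibitory SMAD, was higher by share of cells only (level 1.17). Among 28 WNT genes Frzb, a secreted antagonist of cartilage, was the 1 called by level (2.20, and 1.48 over the Y-linked cells). Wnt5b, a ligand of prehypertrophic cartilage, was in 5 CSP and 0 mSSC cells (1.46), higher by share of cells. It passed the filter on detected cells through CSP cells alone, which fixed that call in advance. Lef1, a nuclear effector, was in 1 CSP and 12 mSSC cells (-1.82).

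Of 15 FGF pathway genes, 9 were found in 5 or more cells. Of them 3 were lower and none higher, beside 1.98% and 3.79% of all tested genes, with a list median of -0.29. Spry2 (-2.53) and Dusp6 (-2.03), feedback inhibitors induced by the pathway, and Fgfr1 (-2.52), a receptor, were the 3, whereas Fgfr3 lay on the higher side as given above. Over the Y-linked cells these 3 differed by -1.23, -1.02 and -1.69, all short of the rule. In the TGF beta list Tgfb2, a ligand, was higher (2.02). Tgfbr3, a co-receptor (-2.41), and Tgfbi, a matrix product of the pathway (-2.20), were lower. That made 1 and 2 of 16, with 14 found in 5 or more cells. Hes1, the Notch target, was lower (-2.68), the 1 called of 13, with 4 found in 5 or more cells. Timp1 was higher (2.52) and Timp3 lower (-3.22), both inhibitors of matrix proteases.

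Division transcripts were rare in most cells of both labels. A cell held a median of 1 of the 25 proliferation genes in CSP and 1 in mSSC cells, 8 of the 11 CSP cells and 27 of the 37 mSSC cells held at least 1, and their summed FPKM had a median of 87.3 in CSP and 51.6 in mSSC cells. The upper ends differed. A CSP cell held at most 2 of the 25 and an mSSC cell up to 20, with highest sums of 498.9 and 16112.5 FPKM. Of the 25, 20 were detected in no kept CSP cell while each of the 25 was found in at least 1 mSSC cell, and none was called (median -0.60). The 37 mSSC cells gave more chances of detection, and with 11 CSP cells a gene in 0 of them allows a share of up to 28.5%. Dissociation stress genes lay lower, 2 of 19 called with a median of -0.78 (-0.15 over the Y-linked cells and -0.28 after rescaling). The 2 were Atf3, a stress-induced factor (-3.26), and Btg2, an antiproliferative early gene (-2.03). Over the Y-linked cells they differed by -1.85 and -0.15, short of the rule. The part of these stress transcripts in the other differences was not tested.

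A few cells of both labels held almost no cartilage collagen and much collagen I. Col2a1 was under 100 FPKM in 1 CSP and 4 mSSC cells, and Col9a1 was at 0 in all 5. The CSP cell had 30585 FPKM of Col1a1, the main collagen of bone and fibrous tissue, 3362 of Postn, the periostin gene, and 4767 of Aspn, a proteoglycan of periosteum and tendon. The 4 mSSC cells had 887 to 38184 FPKM of Col1a1, 27.7 to 13154 of Postn and 846 to 3318 of Aspn. Of the 5 cells 4 lay in 1 plate row, which held 7 kept cells. The 12 fibroblast and periosteal markers summed to a median of 1.42 FPKM in CSP and 284.99 in mSSC cells, with highest sums of 6926 and 18490, and 8 of the 12 were at 0 in all CSP cells. Col1a1 was found in no other kept CSP cell but in 22 of 37 mSSC cells. Its difference was -2.93, from -4.27 to -2.78 when 1 CSP cell at a time was left out, and 0.57 over the Y-linked cells. Without these 5 cells, chosen after seeing the values, 6990 genes passed the filter. Calls came to 4.62% higher and 2.12% lower as percentages of the 7485 genes. The 15 highest and 15 lowest genes were all still called.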

How the data were processed

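Values are FPKM as deposited by the authors, in 1 table of 24388 genes and 92 spike-ins per cell. The submitters' processing notes name the mm10 build and SAMtools, whereas the aligner, the FPKM program and its annotation were not given in the sources used here. Whole reads cannot be had back from FPKM, so depth per cell is unknown and no count model was used. Spike-ins were dropped. Each column was assigned through the index names of its cell's title; 0 were unmatched and 0 identical.

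Each label counted as 1 sample. The pseudocount was 1. Calls over all genes are given as percentages of the 7485 genes, not as numbers of genes. Named genes were the 15 highest and 15 lowest among genes detected in at least 50% of cells of the higher label (gene models, pseudogenes, ribosomal and sex-linked genes left out), up to 3 members of each of 47 lists, and the sort antigens; list members named beyond this were picked with their values in view. The cells and lists were chosen with earlier results of these data known. Cnmd, Snorc and Lepre1 were found under other symbols. Gene coordinates are from GENCODE and promoters from RefSeq. Alternatives changed the pseudocount, scaling, filters, cells and plate rows. The scripts were tested on simulated data. Tools were scipy 1.17.1, pandas 2.3.3, numpy 2.4.6 and matplotlib 3.10.9 under Python 3.11.15.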

Additional observations from a re-analysis of the deposited data

Results flagged for a closer look

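The 15 CSP cells with under 1000 genes enter no comparison above except the repeat on all 26 CSP cells, and some of their transcripts exceeded what mSSC cells showed. Pth1r was detected in 8 of 15 (53.3%, 26.6 to 78.7), against 27.03% of mSSC cells, whose interval ends at 44.1%. Ihh was detected in 5 of 15 (33.3%, 11.8 to 61.6), Col10a1 in 6 of 15 (40%, 16.3 to 67.7) and Alpl in 3 of 15 (20%, 4.33 to 48.1). Each share lay above the upper bound of the interval in mSSC cells, which was 18.2% for Ihh, 21.9% for Col10a1 and 9.49% for Alpl, although the intervals overlapped in part. Panx3 and Smpd3, the other genes of the 6 counted per cell, did not lie above their bounds. Panx3 was detected in 2 of 15, beside 4 of the mSSC cells, and Smpd3 together with Pth1r in 4 of 15. These cells had 71 to 670 detected genes, against 1164 or more in mSSC cells. At least 4 of the 6 transcripts were present in 4 of them, and none of the 6 in 6 of them. Nfib was detected in 0 of 15, which allows up to 21.8%, whereas Cytl1 and Ucma were each detected in 5 of 15, beside 2 and 7 of the 11 kept CSP cells. A Y-linked transcript or Xist was detected in 0 of 15. The 50 highest genes took a median of 96.7% of their FPKM, so a 0 in these cells does not show that a transcript was lacking.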

How the results depend on the processing

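No paired analysis was possible because the labels carry no replicate numbers and cells are not paired. Calls are given as percentages of the 7485 genes, higher and lower by the level rule, then by the share rule. They were 11.1% and 4.81% with a pseudocount of 0.1, 0.574% and 0.414% with 10, and 6.35% higher after rescaling. With all 26 CSP cells they were 0.107% and 15.5%, then 0.0401% and 7.92%. Cells with at least 2000 genes gave 6.03% higher, then 4.10%. The shared range of gene number gave 0.588% lower by share. Within index rows 7.49% were higher, then 6.04%. Detection at an FPKM of 10 gave 1.40% higher by share. Cells with a Y-linked transcript gave 6.23% and 4.81%, then 5.02% and 1.96%. Only 3444 genes passed the filter there, so these percentages of 7485 understate the share called among genes that could be. Leaving out 1 CSP cell at a time gave 2.86% to 5.28% and 1.62% to 2.31%, then 2.14% to 3.61% and 0.307% to 0.428%. Other calls stayed within 1.5 times. With all CSP cells, 15 of which had under 1000 genes, these called genes turned below 0: Nupr1 -0.12, Matn1 -1.22, Comp -1.13, Frzb -0.34, Tgfb2 -0.0085, Omd -0.47, P3h1 -0.56, Gpi1 -0.32, Hmgcs1 -1.21, Scd2 -1.01, Ndufa1 -1.58, Atp5k -1.18, Timp1 -0.66 and S100a11 -2.64. Of genes short of the rule, Cdkn1c (-4.11) and B4galt7 (-0.43) were among those that did so. Col1a1 turned to 0.57 over Y-linked cells. With all CSP cells 4 of the 15 highest genes stayed at least 2 higher, and with a pseudocount of 10, 14 of the 15 lowest stayed at least 2 lower (Sox11 -1.99). Ihh stayed between 3.02 and 7.81 and Cytl1 between -9.01 and -4.89 over all alternatives. The causes were not tested. With 11 CSP cells from an unknown number of animals, all values describe these cells.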
